A study of Homo sapiens
Mus musculus with 2 samples.

Results

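The CEACAM genes described here are Ceacam1, Ceacam2, Ceacam20 and Ceacam19, 4 of the 25504 genes counted in single cells of mouse colonic epithelium. They were picked by name, with their levels across cell classes already known: Ceacam20 for leading in colonocytes and Ceacam19 for leading in goblet cells. Those levels are therefore given as a description, with no test. The cells came from 1 untreated WT mouse of the C57Bl6 background, whose age the labels do not give. Colonic epithelium was dissociated with EDTA, collagenase and DNase, viable cells were enriched with MACS (sorting with magnetic beads), and K562 cells, a human leukaemia line not analysed here, were spiked in. Barcoded droplets (inDrop) and CEL-Seq amplification gave 2 libraries of different cells of that mouse. They are called replicates 1 and 2, and the spread between them may be technical.

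CEACAM proteins are cell surface molecules of the immunoglobulin superfamily. Several bind a CEACAM on the neighbouring cell through their outermost immunoglobulin domain, and several carry tyrosine motifs in the cytoplasmic tail that are phosphorylated by Src family kinases. A tail with an inhibitory motif, as in the long form of CEACAM1, recruits the tyrosine phosphatases SHP-1 and SHP-2, encoded by Ptpn6 and Ptpn11. A tail with an activating-type motif, as in CEACAM20, can bind the kinase SYK. In the intestine CEACAM1 lies on the apical surface of epithelial cells. Mouse CEACAM20 lies on the microvilli, together with the receptor phosphatase SAP-1 (gene Ptprh), which removes phosphate from its tail. Ceacam2 is a close relative of Ceacam1 in mice, and Ceacam19 is a member of the family whose function is little known.

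Replicate 1 held 1738 barcodes with a median of 4615.5 UMIs (unique molecular identifiers, each marking 1 captured RNA molecule) and replicate 2 held 664 with a median of 4756.5. After the barcodes with the highest doublet scores were left out, 1651 and 631 cells remained. They formed 11 clusters, made without the CEACAM genes and named from marker genes. Colonocyte-like cells (467 in replicate 1 and 130 in replicate 2) made up 2 clusters, led by Aqp8 and Fabp6. Goblet-like cells (281 and 75) also made up 2, led by Scin and Clca1. Deep crypt secretory-like cells (300 and 81, led by Reg4) and stem/cycling-like cells (110 and 49, led by Top2a) made up 1 cluster each. The stem identity of the last rests on few transcripts: Lgr5, the classical stem cell marker, had a UMI in 12.6% of its cells, and Top2a in 83.6%. There were also 60 T cell-like cells, in whose cluster Igha of plasma cells led (T cell markers summed to 22112 CPM, and those of B and plasma cells to 46901 CPM), 11 tuft-like cells and 718 cells in 3 unnamed clusters. Replicate 2 had 45.8% of its cells in unnamed clusters and replicate 1 had 26.0%. Levels are UMIs per 1e6 UMIs of a class (CPM). CEL-Seq counts molecules by their 3′ ends, so CPM values of different genes were set side by side without division by transcript length.

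Ceacam1 was among the most abundant transcripts of this epithelium. It had 30895 UMIs, which placed it at rank 30 of all genes, and it took 0.251% of the UMIs of replicate 1 and 0.234% of those of replicate 2. Ceacam20 had 2232 UMIs (rank 880), Ceacam19 had 972 (rank 2238) and Ceacam2 had 761 (rank 2823). The 4 genes thus spanned a wide range of abundance, and the values of Ceacam2 and Ceacam19 rest on far fewer molecules than those of Ceacam1.

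Ceacam1 was found in every epithelial class and was highest in both differentiated classes. In colonocyte-like cells it stood at 3941 CPM in replicate 1 (95% exact Poisson interval 3861 to 4023) and 4080 CPM in replicate 2 (3946 to 4217), a mean of 4011 ± 98.3 CPM (SD, n = 2 libraries). In goblet-like cells it stood at 3554 and 3621 CPM (3587 ± 47.6, SD, n = 2). Both of these classes lay far above the crypt classes. Deep crypt secretory-like cells had 1155 and 1058 CPM (1106 ± 68.6, SD, n = 2), and stem/cycling-like cells had 828 and 817 CPM (823 ± 7.65, SD, n = 2). The libraries of these classes did not overlap, and their order was the same in both replicates. Ceacam1 was detected in 95.5% and 99.2% of colonocyte-like cells, in 97.2% of goblet-like cells of replicate 1 and all 75 of replicate 2, and in 90.3% and 95.1% of deep crypt secretory-like cells. Single cells varied widely: goblet-like cells of replicate 1 had a median of 14 Ceacam1 UMIs and a maximum of 152, and colonocyte-like cells of replicate 2 a median of 21 and a maximum of 140. T cell-like cells had a Ceacam1 UMI in 52.7% (replicate 1) and 40.0% (replicate 2), at 493 CPM (367 to 648) and 448 CPM (146 to 1046). Activated T cells are known to express CEACAM1, so these cells are no measure of free RNA for this gene. The 11 tuft-like cells held 22 Ceacam1 UMIs, and 0 UMIs of Ceacam2, Ceacam20 or Ceacam19, which allows a level of up to 129 CPM for each (taken as 3 counts of their 23342 UMIs, both libraries pooled).

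Ceacam2 followed the same order of classes at a much lower level. Colonocyte-like cells had 65.9 CPM in replicate 1 and 158 CPM in replicate 2 (112 ± 65.3, SD, n = 2). Goblet-like cells had 61.4 and 155 CPM (108 ± 66.1, SD, n = 2), deep crypt secretory-like cells had 24.6 and 52.7 CPM (38.7 ± 19.9, SD, n = 2) and stem/cycling-like cells had 21.3 and 27.1 CPM (24.2 ± 4.12, SD, n = 2). Replicate 2 was the higher in each class, and the order of classes was the same in both replicates. The libraries of colonocyte-like and goblet-like cells overlapped, as did those of the crypt classes, while goblet-like cells stood apart from deep crypt secretory-like cells. Ceacam2 was detected in 25.7% and 56.2% of colonocyte-like cells and in 23.5% and 48.0% of goblet-like cells.

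Ceacam20 was concentrated in colonocyte-like cells. These stood at 570 CPM in replicate 1 (540 to 601) and 481 CPM in replicate 2 (435 to 529), a mean of 525 ± 63.1 CPM (SD, n = 2). Goblet-like cells had 12.7 and 27.5 CPM (20.1 ± 10.5, SD, n = 2), deep crypt secretory-like cells had 9.22 and 10.2 CPM, and stem/cycling-like cells had 10.6 and 2.26 CPM. Both colonocyte-like libraries lay far above every library of the other classes, and the crypt classes overlapped. Both goblet-like libraries lay above every crypt library. Their counting intervals overlapped those of deep crypt secretory-like cells in both replicates, and those of stem/cycling-like cells in replicate 1. Of all Ceacam20 UMIs in kept cells, 83.6% were in colonocyte-like cells, which held 27.8% of the UMIs of all genes (both libraries pooled). The Ceacam20 share was 86.5% in replicate 1 and 75.4% in replicate 2, while unnamed cells held 10.6% and 20.4%. A Ceacam20 UMI was found in 77.5% (73.5% to 81.2%) and 76.9% (68.7% to 83.9%) of colonocyte-like cells, with a median of 2 UMIs in both replicates and a maximum of 18 in a cell. In goblet-like cells the share was 5.34% and 13.3% at median depths of 5342 and 7865 UMIs. In T cell-like cells, taken as a background, it was 3.64% and 0.0% at 1668 and 2138 UMIs. With every cell thinned to 1000 UMIs, 1.78% and 2.67% of goblet-like cells and 3.64% and 0.0% of T cell-like cells had a Ceacam20 UMI, against 40.7% and 28.5% of colonocyte-like cells. The thinned shares outside colonocyte-like and unnamed cells lay within the counting error of that background. It rests on 2 UMIs in 60 cells, so it cannot show that these classes lack Ceacam20.

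Ceacam19 was concentrated in goblet-like cells in the same way. These stood at 282 CPM in replicate 1 (255 to 310) and 575 CPM in replicate 2 (515 to 640), a mean of 428 ± 207 CPM (SD, n = 2). Deep crypt secretory-like cells had 14.1 and 42.5 CPM, colonocyte-like cells 10.3 and 22.1 CPM, and stem/cycling-like cells 9.31 and 6.77 CPM. The goblet-like libraries differed widely from each other, yet the lower of them was well above every other class in both replicates. Goblet-like cells held 84.3% of the Ceacam19 UMIs and 18.2% of the UMIs of all genes. The gene was detected in 63.3% (57.4% to 69.0%) and 84.0% (73.7% to 91.4%) of goblet-like cells, and in 27.0% and 34.7% after thinning to 1000 UMIs. In colonocyte-like cells these shares were 4.50% and 12.3%, and 1.28% and 3.85% after thinning. T cell-like cells, taken as a background, had a Ceacam19 UMI in 1.82% and 0.0% both before and after thinning. The thinned shares in colonocyte-like cells lay within the counting error of that background. It rests on 1 UMI in 60 cells, so it cannot show that colonocyte-like cells lack Ceacam19. The share of 0 in replicate 2 rests on 5 cells only.

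**Figure D1:**
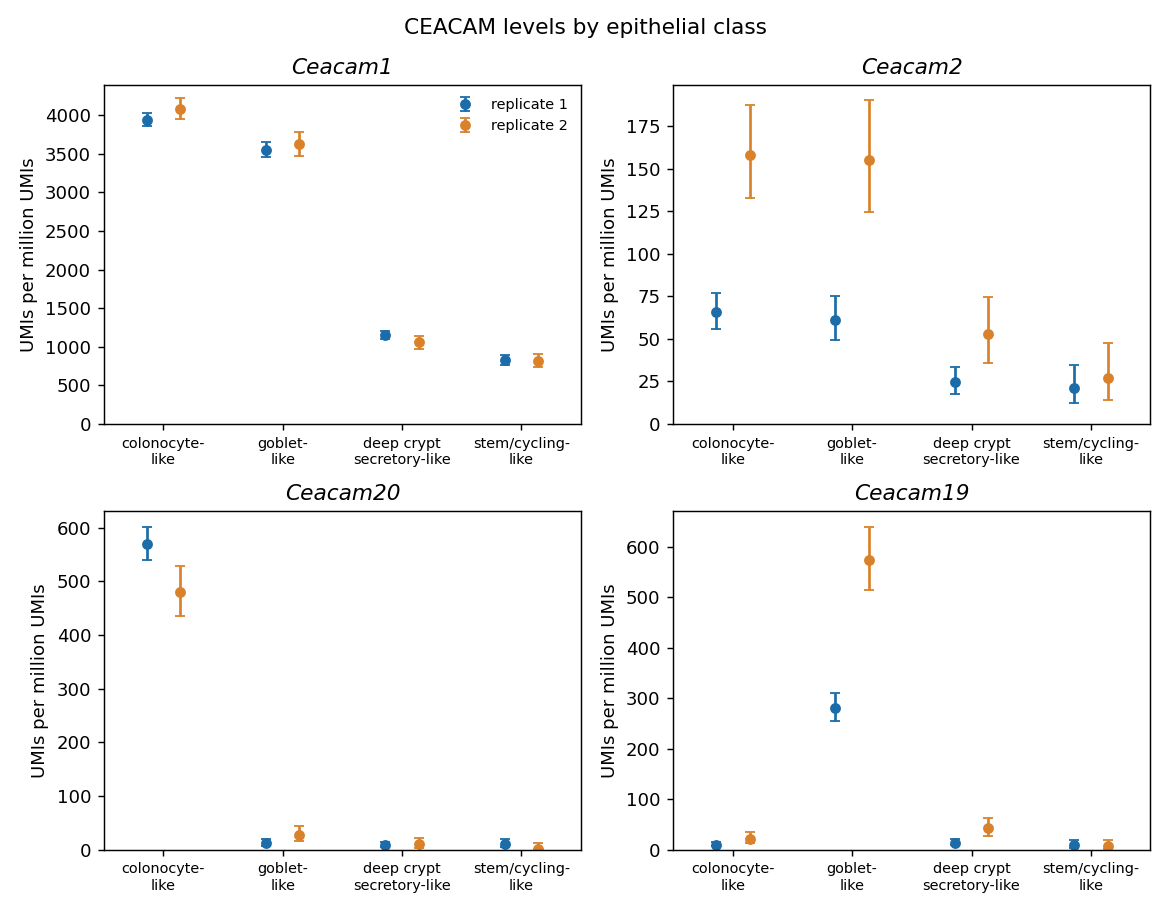
Level of the 4 CEACAM genes (y axis, UMIs per 1e6 UMIs, a separate linear scale from 0 for each gene) in 4 epithelial classes (x axis). Points are the 2 libraries and bars are 95% exact Poisson intervals, which cover counting error only. Ceacam1 and Ceacam2 were high in colonocyte-like and goblet-like cells, Ceacam20 stood at 570 and 481 CPM in colonocyte-like cells, and Ceacam19 at 282 and 575 CPM in goblet-like cells.

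Ceacam1 accompanied each of the restricted genes within single cells. Of the colonocyte-like cells with a Ceacam20 UMI, 98.1% in replicate 1 and 99.0% in replicate 2 also had a Ceacam1 UMI. Of the goblet-like cells with a Ceacam19 UMI, 96.6% in replicate 1 and all 63 in replicate 2 had Ceacam1, while 3.93% and 15.9% had Ceacam20. These shares are close to those over all cells of the class, given above. Ceacam1 was spread more evenly than either restricted gene, with 45.1% of its UMIs in colonocyte-like, 26.5% in goblet-like, 8.90% in deep crypt secretory-like and 3.51% in stem/cycling-like cells. Ceacam2 was divided in much the same way, at 41.4%, 26.1%, 10.2% and 4.01%.

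**Figure D2:**
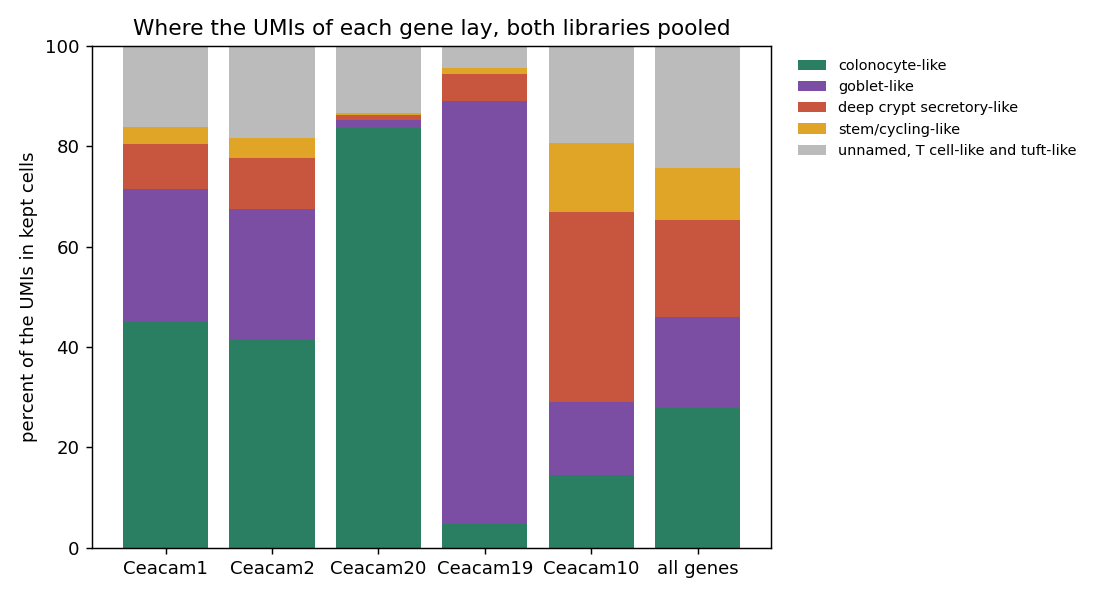
Percent of the UMIs of each gene, and of all genes together, that fell in each class (y axis, both libraries pooled, kept cells). Colonocyte-like cells held 83.6% of Ceacam20 and goblet-like cells 84.3% of Ceacam19, against 27.8% and 18.2% of the UMIs of all genes. Deep crypt secretory-like cells held 37.9% of Ceacam10.

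The unnamed clusters differed from each other in their CEACAM levels. The Dnase1-led cluster, with a median of 34.9% mitochondrially encoded UMIs and 1735 UMIs per cell, had Ceacam20 at 365 and 185 CPM and Ceacam1 at 2844 and 1924 CPM. Its colonocyte markers summed to 13656 CPM, below the 38077 and 44819 CPM of the Fabp6-led and Aqp8-led colonocyte-like clusters. The Reg3b-led cluster, with 5893.5 UMIs per cell, had Ceacam20 at 76.3 and 60.4 CPM, Ceacam1 at 1623 and 1448 CPM and Ceacam19 at 2.54 and 5.49 CPM. Its Ceacam20 level lay between the colonocyte-like and the crypt clusters in both replicates. The shallow Olfr1121-led cluster, with 1544 UMIs per cell, had Ceacam20 at 102 and 126 CPM and Ceacam19 at 36.9 and 43.0 CPM. It held markers of several cell types: goblet markers summed to 28002 CPM and colonocyte markers to 11957 CPM. Red cell markers summed to 10508 CPM in replicate 1 and 12.6 CPM in replicate 2.

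Over the 9 clusters with at least 10 cells in each library, the order of Ceacam1 ran from the Aqp8-led colonocyte-like cluster at 4581 ± 291 CPM and the Clca1-led goblet-like cluster at 4360 ± 62.5 CPM (SD, n = 2 each), whose libraries overlapped, to the stem/cycling-like cluster. For Ceacam20 both colonocyte-like clusters, which overlapped, were followed by the Dnase1-led, the Olfr1121-led and the Reg3b-led clusters, each apart from its neighbours. The goblet-like, deep crypt secretory-like and stem/cycling-like clusters came last, each overlapping with the next in the order. The Clca1-led goblet-like cluster (17.9 and 25.6 CPM) was apart from the deep crypt secretory-like (9.22 and 10.2 CPM) and stem/cycling-like clusters (10.6 and 2.26 CPM). These values rest on 14 and 9 UMIs, against 15 and 6, and 8 and 1 UMIs. The counting intervals overlapped in each replicate. For Ceacam19 both goblet-like clusters overlapped with each other and stood apart from all others. The Reg3b-led cluster came last, apart from the stem/cycling-like cluster above it. That last gap rests on 3 and 3 UMIs against 7 and 3 UMIs, with counting intervals that overlapped in each replicate. For Ceacam2 every pair of neighbours in the order overlapped.

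Genes whose level followed that of each CEACAM gene were ranked by Pearson's r of log2(CPM + 10) over these 9 clusters, taking the lower r of the 2 libraries among 13139 genes. The clusters share libraries and depth, so these r values are descriptions. Ceacam20 was most like Prss30 (0.99, a serine protease gene), Ces2c (0.99, a carboxylesterase gene), Abcb1a (0.98, which encodes a drug efflux pump), Car4 (0.97, a carbonic anhydrase gene) and Slc26a3 (0.97, which encodes the chloride/bicarbonate exchanger of colonocytes). Ceacam19 was most like 1700017I07Rik (0.96), Vstm4 (0.95), Spink1 (0.95, a trypsin inhibitor gene), Pcdhb21 (0.95, a protocadherin gene) and C19orf25 (0.95). Ceacam1 was most like Glis3 (0.95, a zinc finger transcription factor gene), Entpd8 (0.94, which encodes an ectonucleotidase), Ceacam2 (0.94), Sprr2a3 (0.94) and Eif2s2 (0.94, a translation initiation factor gene). Ceacam2 was most like Ceacam1 (0.94), Glis3 (0.92), Nlrp4a (0.90), Eps8l3 (0.90) and Prss44 (0.90). Of these, Prss30, Car4, Slc26a3, Vstm4, Pcdhb21, Glis3, Entpd8, Eif2s2, Nlrp4a, Eps8l3 and Prss44 had served to make the clusters, and Car4 and Slc26a3 are colonocyte markers. Ceacam1 and Ceacam20 had an r of 0.56, and Ceacam20 and Ceacam19 an r of -0.38.

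Within the goblet-like class, a comparison that did not enter the choice of the genes, Ceacam1, Ceacam2 and Ceacam19 were all lower in the Scin-led cluster than in the Clca1-led one. Ceacam1 had 2621 and 2555 CPM in the Scin-led cluster, against 4404 and 4316 CPM in the Clca1-led cluster. Ceacam19 had 185 and 440 CPM in the Scin-led cluster, against 370 and 662 CPM in the Clca1-led cluster. Ceacam2 had 36.4 and 105 CPM in the Scin-led cluster, against 84.2 and 188 CPM in the Clca1-led cluster. The Ceacam1 libraries did not overlap, while those of Ceacam19 and Ceacam2 overlapped and the Scin-led cluster was the lower in each replicate. In edgeR's quasi-likelihood test over 7644 genes, with the library as a block and Benjamini-Hochberg adjustment, the log2 fold change was -0.97 ± 0.13 for Ceacam1 (SE, adjusted p = 1.24e-09). It was -1.02 ± 0.19 for Ceacam19 (SE, adjusted p = 1e-05) and -1.25 ± 0.28 for Ceacam2 (SE, adjusted p = 0.000628). Ceacam20, with 5 and 7 UMIs in the Scin-led and 14 and 9 UMIs in the Clca1-led cluster, did not pass (-0.89 ± 0.51, adjusted p = 0.421). Of all genes tested 4.38% passed in this comparison, 2.46% of them as lower, and 3 of the 4 CEACAM genes did. Without the library block none of the 3 passed, with adjusted p = 0.145 for Ceacam1, 0.153 for Ceacam2 and 0.218 for Ceacam19. With the sums thinned to equal depth Ceacam2 had an adjusted p = 0.0502. Goblet markers summed to 119879 CPM in the Scin-led and 220842 CPM in the Clca1-led cluster, and deep crypt secretory markers to 8673 and 5131 CPM. The median depth was 6867.5 UMIs in the Scin-led and 4279 UMIs in the Clca1-led cluster, and the median doublet score 0.60 and 0.34. The part of these values in the result was not tested.

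Within the colonocyte-like class, Ceacam1 was higher in the Aqp8-led cluster, at 4787 and 4375 CPM, than in the Fabp6-led cluster, at 3347 and 3717 CPM. The 2 clusters did not overlap, and the log2 fold change was 0.44 ± 0.13 (SE, edgeR adjusted p = 0.0377). Ceacam20 had 644 and 487 CPM in the Aqp8-led cluster, against 518 and 472 CPM in the Fabp6-led cluster. These values overlapped, and the difference of 0.26 ± 0.16 did not pass (adjusted p = 0.638). Nor did that of Ceacam2 (0.57 ± 0.23, adjusted p = 0.26), with 80.4 and 181 CPM in the Aqp8-led and 55.7 and 130 CPM in the Fabp6-led cluster. Ceacam19 was low in both, at 11.5 and 21.1 CPM in the Aqp8-led and 9.53 and 23.4 CPM in the Fabp6-led cluster. It did not pass either (0.14 ± 0.45, adjusted p = 0.974). Of all genes 2.45% passed in this comparison, 1.13% as higher and 1.32% as lower, and 1 of the 4 CEACAM genes did. Without the library block Ceacam1 had an adjusted p = 0.977. Colonocyte markers summed to 44819 CPM in the Aqp8-led and 38077 CPM in the Fabp6-led cluster, at median depths of 6565 and 3890 UMIs, and the part of either in the result was not tested.

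**Figure D3:**
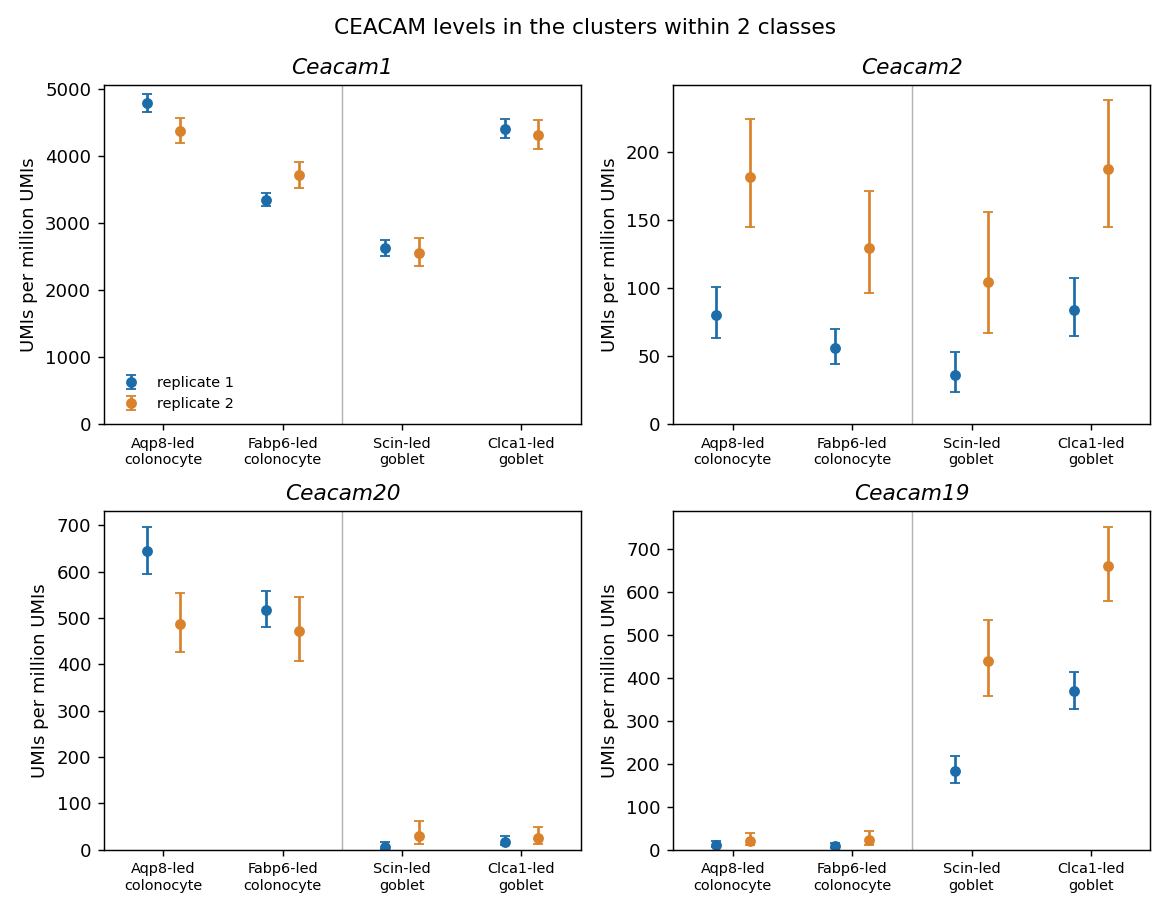
Level of the 4 CEACAM genes (y axis, UMIs per 1e6 UMIs, a linear scale from 0 for each gene) in the colonocyte-like clusters (left of the line) and the goblet-like clusters (right of it). Points are libraries and bars 95% exact Poisson intervals. Ceacam1 stood at 2621 and 2555 CPM in the Scin-led goblet-like cluster and at 4404 and 4316 CPM in the Clca1-led one, and Ceacam19 and Ceacam2 were lower in the Scin-led cluster in each replicate.

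Between the crypt classes, Ceacam1 was higher in deep crypt secretory-like cells (1155 and 1058 CPM) than in stem/cycling-like cells (828 and 817 CPM), with no overlap of libraries. The log2 fold change was 0.57 ± 0.15 (SE, edgeR adjusted p = 0.00704). It depended on where the stem/cycling-like cluster ended: at a coarser clustering resolution, where that cluster also took in Reg3b-led cells, it was -0.078 (adjusted p = 0.79). Without the library block the adjusted p was 0.441. Ceacam19 passed as well, at 1.62 ± 0.47 (SE, adjusted p = 0.0166), but the call was lost without the doublet filter and without the library block. It was also lost when 1 cell was left out. That cell, in the deep crypt secretory-like cluster of replicate 2, held 11 of the cluster's 25 Ceacam19 UMIs in that library, with 916 UMIs of Zg16, 281 of Muc2, 277 of Clca1 and 0 of Reg4. Without it the log2 fold change was 1.23 (adjusted p = 0.103). Ceacam2 (0.71 ± 0.34, adjusted p = 0.211) and Ceacam20 (0.46 ± 0.60, adjusted p = 0.742) did not pass, but at the coarser resolution Ceacam20 was lower in deep crypt secretory-like cells (-2.19, adjusted p = 7.29e-07). Of all genes 11.6% passed here, 6.12% as higher and 5.48% as lower, and 2 of the 4 CEACAM genes did, or 1 without that cell.

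Ceacam2 differed between the libraries more than most genes. Averaged over the 4 classes, its log2 ratio of replicate 2 over replicate 1 was 0.86, higher in replicate 2 in 4 of 4 classes, and 0.503% of 15316 genes lay as far from 0. For Ceacam19 the ratio was 0.65 (higher in 3 of 4 classes, with 1.85% of genes as far), while for Ceacam1 and Ceacam20 it was -0.02 and -0.05. The ratio is on the log2(CPM + 10) scale. Ceacam2 and Ceacam1 are close relatives, and how reads that fit both were assigned is not given in the sources used here. Ceacam2 made up 3.73% of the Ceacam1 plus Ceacam2 UMIs of colonocyte-like cells in replicate 2 (95% exact binomial interval 3.14% to 4.40%) and 1.64% in replicate 1 (1.40% to 1.92%). In goblet-like cells it made up 4.10% in replicate 2 (3.31% to 5.02%) and 1.70% in replicate 1 (1.37% to 2.08%). In stem/cycling-like cells the shares were 3.21% and 2.50%, with overlapping intervals. Within a library the share was alike in colonocyte-like and goblet-like cells, with intervals that overlapped. A part of misassigned Ceacam1 reads in the Ceacam2 values was not tested.

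**Figure D4:**
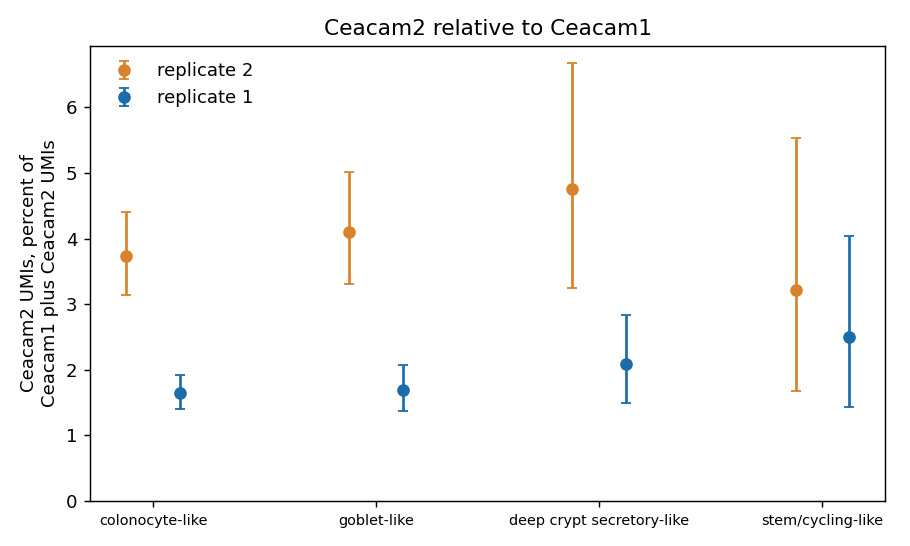
Ceacam2 UMIs as a percent of Ceacam1 plus Ceacam2 UMIs (y axis) by class (x axis) and library, with 95% exact binomial intervals. The share was 3.73% in replicate 2 and 1.64% in replicate 1 in colonocyte-like cells, and 4.10% and 1.70% in goblet-like cells, while the intervals overlapped in stem/cycling-like cells.

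The rest of the family was mostly scarce. Of 23 other Ceacam and Psg genes in the table, 10 could be tested with at least 20 UMIs over the summed classes. In colonocyte-like cells 1 was higher and 2 lower (20.8% and 19.8% of all genes), and in deep crypt secretory-like cells 2 and 1 (12.1% and 8.99%). In goblet-like cells 1 was higher and 0 lower (9.85% and 5.6%), and in stem/cycling-like cells also 1 and 0 (14.8% and 13.5%). Ceacam10, which encodes a secreted member, was the second most abundant of the family at 6701 UMIs and was highest in deep crypt secretory-like and lowest in colonocyte-like cells. It stood at 1117 and 821 CPM in deep crypt secretory-like cells, 723 and 648 CPM in stem/cycling-like cells, 462 and 337 CPM in goblet-like cells and 292 and 232 CPM in colonocyte-like cells. Its libraries did not overlap between neighbouring classes of this order. Deep crypt secretory-like cells were above the mean of the other 3 classes (log2 fold change 1.01 ± 0.12, SE, edgeR adjusted p = 2.16e-08) and colonocyte-like cells were below it (-0.96 ± 0.14, adjusted p = 1.86e-07). Between the crypt classes Ceacam10, like Ceacam1, was higher in deep crypt secretory-like cells (0.63 ± 0.16, edgeR adjusted p = 0.00418, and 0.34 without the library block). Within the colonocyte-like class Ceacam10 was lower in the Aqp8-led cluster, at 214 and 184 CPM, than in the Fabp6-led cluster, at 348 and 291 CPM (-0.63 ± 0.17, adjusted p = 0.0176). That call was lost in DESeq2 (adjusted p = 0.0672) and without the library block (0.874). Ceacam12, with 311 UMIs, was higher in deep crypt secretory-like (2.21 ± 0.25) and goblet-like cells (1.86 ± 0.27) and lower in colonocyte-like cells (-3.19 ± 0.39) than in the mean of the other classes. Ceacam18, with 118 UMIs, was higher in colonocyte-like (2.77 ± 0.40) and lower in deep crypt secretory-like cells (-2.21 ± 0.68). The lower call of Ceacam18 was lost in DESeq2 (adjusted p = 0.0978), with thinned sums (0.289) and without the doublet filter (0.0611). Psg23, with 229 UMIs, was higher in stem/cycling-like cells (0.895 ± 0.309, SE, edgeR adjusted p = 0.0256). That call was lost in DESeq2 (adjusted p = 0.164), without the library block (0.0534) and with all other cells summed, unnamed ones included (0.0548). The libraries of the family members with fewer than 20 UMIs held too few molecules for an order of classes.

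Genes known to bind or signal with CEACAM proteins were often higher in colonocyte-like cells. Of 25 on the list, 21 were tested. In colonocyte-like cells 10 were higher and 0 lower than in the mean of the other 3 classes, with a median log2 fold change of 0.45, in a comparison in which 40.6% of all genes passed, 20.8% as higher and 19.8% as lower, with a median of -0.01. At an unadjusted p under 0.05, and in DESeq2, the counts were also 10 higher and 0 lower. Against all other epithelial cells summed, a setting that moved the median of all genes to -0.12, 11 were higher and 1 lower. That sum holds every kept cell outside the class except T cell-like ones, so it takes in the unnamed cells, which were given no class. Ptprh, the phosphatase gene of the CEACAM20 partner SAP-1, had the largest change. It stood at 121 and 127 CPM in colonocyte-like, 25.4 and 31.0 CPM in goblet-like, 3.07 and 10.2 CPM in deep crypt secretory-like and 6.65 and 4.52 CPM in stem/cycling-like cells. Against the mean of the other 3 classes its log2 fold change in colonocyte-like cells was 4.03 ± 0.23 (SE, edgeR adjusted p = 7.24e-18). The kinase genes on the list that were higher in colonocyte-like cells were Syk (1.96 ± 0.21), Src (1.31 ± 0.17) and Lyn (1.01 ± 0.18). The receptor gene Tgfbr1 (1.82 ± 0.27), the calmodulin genes Calm3 (0.97 ± 0.12) and Calm2 (0.66 ± 0.12), the beta-catenin gene Ctnnb1 (1.25 ± 0.12), the adaptor gene Grb2 (0.99 ± 0.17) and the paxillin gene Pxn (0.45 ± 0.15) were the others. Without the library block Pxn did not pass (adjusted p = 0.153). Ptpn6 (0.41 ± 0.27) and Ptpn11 (-0.01 ± 0.22), the genes of the phosphatases bound by CEACAM1, did not pass.

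In goblet-like cells 15.5% of all genes passed, 9.85% as higher and 5.6% as lower. Higher genes were 63.8% of these calls, against 46.9% when goblet-like cells were set against the sum of all other epithelial cells. Of the 21 partner genes 2 were higher, the insulin receptor gene Insr (1.84 ± 0.20) and Ptprh (1.07 ± 0.32), and 3 were lower, Cxcl2 (-2.38 ± 0.83), Tgfbr1 (-1.76) and Calm2 (-0.75). Cxcl2 was scarce, with 57 UMIs in all and 1.33 and 0.0 CPM in goblet-like cells. Set against the sum of all other epithelial cells, Ptprh was instead lower in goblet-like cells (-0.70, adjusted p = 0.0237) and Cxcl2 did not pass (0.0552). In DESeq2 Ptprh did not pass either (0.0611), nor did it at the coarser resolution (0.288), where Cxcl2 was also lost (0.0726). Without the library block Ptprh (0.0522), Cxcl2 (0.118) and Calm2 (0.0923) were all lost. The median of the 21 partner genes was -0.10, against -0.01 over all genes. In deep crypt secretory-like cells, where 21.1% of all genes passed, 0 were higher and 5 lower in edgeR (12.1% and 8.99% of all genes), 1 and 6 at an unadjusted p under 0.05, and 0 and 6 in DESeq2, and in stem/cycling-like cells, where 28.4% of all genes passed, 3 were higher and 5 lower (14.8% and 13.5%). Between the goblet-like clusters Ptprh was lower in the Scin-led one (-1.78 ± 0.47), as Ceacam1, Ceacam2 and Ceacam19 were, and Calm2 was higher (0.58). Neither passed without the library block (adjusted p = 0.103 for Ptprh and 0.553 for Calm2), nor did Ptprh with thinned sums (0.318). Between the colonocyte-like clusters 0 of the 21 passed in edgeR or in DESeq2, with 4 higher and 1 lower at an unadjusted p under 0.05.

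Other adhesion and immunoglobulin-type surface genes of epithelium also favoured colonocyte-like cells. Of 32 in the table, 29 were tested. In colonocyte-like cells 20 of them were higher and 4 were lower, with a median log2 fold change of 1.13, where 20.8% of all genes were higher and 19.8% lower. Among those higher were the intestinal cadherin gene Cdh17 (1.99 ± 0.12), the desmoglein gene Dsg2 (1.69 ± 0.12), the A33 antigen gene Gpa33 (1.64 ± 0.11), the junctional adhesion gene F11r (1.61 ± 0.13) and the E-cadherin gene Cdh1 (1.27 ± 0.12). Lower were Mpzl1 (-2.88 ± 0.24), Nectin4, Nectin1 (-1.88 ± 0.37) and Alcam (-0.95 ± 0.21), of which Nectin4 was lost in DESeq2 (adjusted p = 0.0762) and with thinned sums (0.274). In goblet-like cells 7 were higher and 2 lower (3 and 5 when set against the sum of all other epithelial cells), against 9.85% and 5.6% of all genes. In deep crypt secretory-like cells 2 were higher and 14 lower (12.1% and 8.99% of all genes). In stem/cycling-like cells 5 were higher and 12 lower (14.8% and 13.5% of all genes), with 6 lower without the library block. Within the goblet-like class Cdh17 (-0.82), Dsg2 (-0.53) and Gpa33 (-0.48) passed as lower in the Scin-led cluster, where 2.46% of all genes did. None of these passed without the library block (adjusted p = 0.286 for Cdh17, 0.65 for Dsg2 and 0.657 for Gpa33). Gpa33 was also lost with thinned sums (0.254), and Dsg2 with thinned sums (0.0996), in DESeq2 (0.0914) and without the count filter (0.0614). Within the colonocyte-like class Clmp (-2.45), Vsig1 (-1.63) and Pigr (-0.50), the gene of the receptor that carries IgA across the epithelium, passed as lower in the Aqp8-led cluster, where 1.32% of all genes did. None of these passed without the library block (adjusted p = 0.0648 for Clmp, 0.156 for Vsig1 and 0.951 for Pigr), and with thinned sums Vsig1 (0.1) and Pigr (0.0937) were lost. DESeq2 gave no adjusted p for Clmp and Vsig1.

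**Figure D5:**
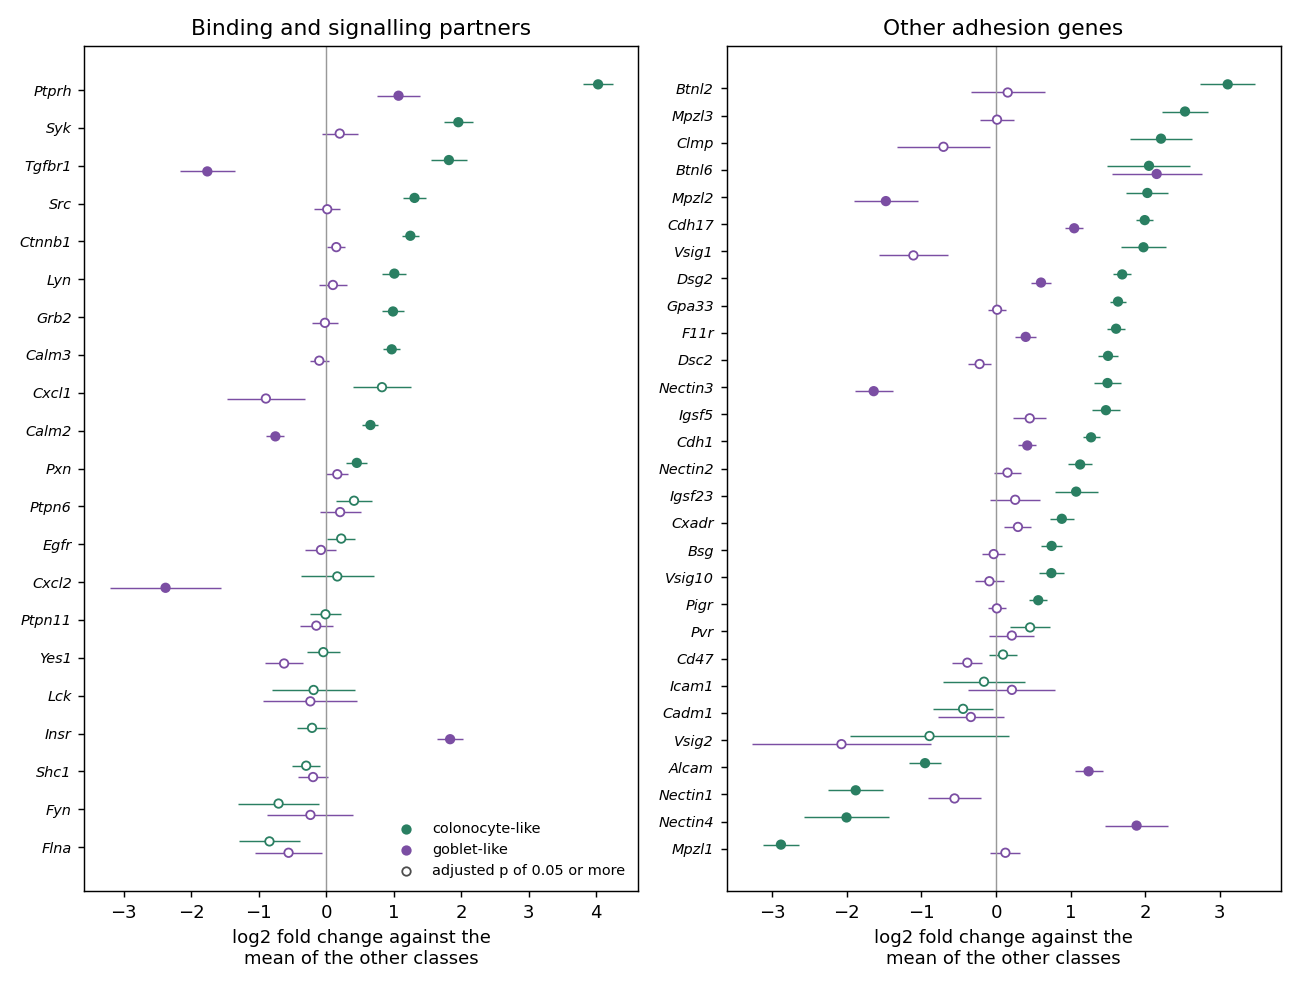
Log2 fold change of each tested partner gene (left) and adhesion gene (right) in colonocyte-like and in goblet-like cells, each against the mean of the other 3 classes (x axis, edgeR). Bars are standard errors, and filled points have an adjusted p under 0.05. In colonocyte-like cells 10 of 21 partner genes and 20 of 29 adhesion genes were higher, with Ptprh at 4.03.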

How the data were processed

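Single cells were measured in 2 libraries of 1 mouse. The deposited values are UMI counts per gene and barcode, whole numbers without normalization, per the file headers and values. Per the submitters' processing notes the builds were GRCh38 and GRCm38. The aligner, annotation, counting strand and barcode filter were not given in the sources used here, and counts of close paralogs are uncertain. The CEACAM genes and the gene lists were chosen with earlier results of these data known.

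No barcode fell under 500 UMIs or 250 genes, and 0 barcodes had identical counts in both libraries. The 5% of barcodes with the highest doublet score (share of simulated pairs among 50 neighbours), 87 and 33, were left out. A fixed division by symbol gave 12744 clustering genes (all markers) and 12760 readout genes (the CEACAM genes, the lists, mitochondrial genes). Leiden clustering (resolution 1, 15 neighbours, 30 components of 1500 variable clustering genes) used leidenalg 0.10.2. Related genes lie on both sides, so the tests are not independent of the clustering. Each cluster was given the class with the highest mean marker score among those that scored at least 1.5 and had 3 markers each found in 10% of its cells, if no other class had more markers among its 15 leading genes and mitochondrial UMIs were at most 20%. The T cell-like cluster scored higher for B and plasma cells, of whose markers fewer than 3 met that bar. A cycling cluster with the highest stem score was called stem/cycling. This naming rule was set with the clusters already seen.

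UMIs were summed per library and class (8 sums of 442881 to 2321727 UMIs) or named epithelial cluster (12 sums of 229349 to 1626459). The 7644 readout genes that reached 20 UMIs entered edgeR 4.0.16 (functions glmQLFit and glmQLFTest, TMM, library as a block, Benjamini-Hochberg), with 3 residual degrees of freedom for classes and 5 for clusters, after a check on simulated data. Each class or cluster has a sum from each library by construction, which is where the pairing comes from. With the library as a block, the p-values cover how class or cluster differences varied between 2 libraries of 1 mouse, which may be technical. An overall shift between the libraries is taken out, and only the setting without the block counts it as spread. Intervals are exact Poisson or binomial ones and cover counting error only. Named genes were the CEACAM genes, the 5 genes most like each, and list genes with an adjusted p under 0.05, besides others given for comparison. Alternatives were DESeq2 1.42.0, no filter, no block, thinned sums, another resolution, no doublet filter, all other cells summed (unnamed ones included, T cell-like ones not) and each library left out. Leaving out the cell with the most Ceacam19 UMIs was chosen after seeing the data. A further gene of the partner list is not reported here. K562 cells, promoters, proteins and chromosomal neighbours were not analysed here.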

Additional observations from a re-analysis of the deposited data

How the results depend on the processing

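Depth limits Ceacam2, Ceacam19 and the low levels of Ceacam20, and 2 libraries of 1 mouse cannot show how mice differ. Thinned to 1000 UMIs per cell, the pooled share of colonocyte-like cells with a UMI was 87.6% for Ceacam1, 8.38% for Ceacam2 and 38.0% for Ceacam20, and that of goblet-like cells 28.7% for Ceacam19. Without the doublet filter Ceacam1 averaged 3838 CPM in colonocyte-like, 3438 in goblet-like, 1175 in deep crypt secretory-like and 856 in stem/cycling-like cells, and Ceacam20 32.8 in goblet-like and 14.7 in deep crypt secretory-like cells. At resolution 0.5, where stem/cycling-like cells take in Reg3b-led ones, they had 1230 CPM of Ceacam1, 36.7 of Ceacam2, 41.5 of Ceacam20 and 5.69 of Ceacam19. The log2 fold change of deep crypt secretory-like over stem/cycling-like cells was then -0.078 for Ceacam1 and -2.19 for Ceacam20 (edgeR adjusted p = 7.29e-07). Without the replicate block that comparison gave 0.57 for Ceacam1 and 1.70 for Ceacam19, the Aqp8-led over Fabp6-led one 0.45 for Ceacam1, and the Scin-led over Clca1-led one -0.97 for Ceacam1, -1.28 for Ceacam2 and -0.97 for Ceacam19, none past the threshold. Thinned sums gave -1.11 for Ceacam2 between the goblet-like clusters. For Ceacam19 between the crypt classes the value was 1.08 without the doublet filter (adjusted p = 0.141) and 1.23 without the cell with the most of its UMIs (0.103), and from 0.70 to 2.69 over all settings, both ends with 1 library left out. With 1 library left out, which allows no test, values ran from -0.068 to 2.05 for Ceacam20 between the crypt classes, from 0.56 to 0.57 for Ceacam2 and from -0.070 to 0.30 for Ceacam19 between the colonocyte-like clusters, and from -1.53 to 0.089 for Ceacam20 between the goblet-like clusters. Genes called were 1612 for deep crypt secretory-like cells (966 with DESeq2, 987 without the block), 1181 for goblet-like (702 and 661), 2169 for stem/cycling-like (1431 with DESeq2), 887 between the crypt classes (474 and 428), 187 between the colonocyte-like clusters (85, 44, and 82 thinned) and 335 between the goblet-like clusters (218, 66, and 209 thinned). The cause of these shifts was not tested. Cycling-like against stem/cycling-like cells was not run, because no separate cycling-like cluster formed.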
